A study of Mus musculus with 14 samples.

Results

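The Wnt ligands, their receptors, antagonists and feedback genes were described in RNA sequencing of whole brains of fetal mice. A gene belonged to the group if its symbol was that of a Wnt, a frizzled (Fzd1 to Fzd10), a secreted frizzled-related protein (Sfrp1, Sfrp2, Sfrp4, Sfrp5 and Frzb), a Dickkopf (Dkk1 to Dkk4), an R-spondin (Rspo1 to Rspo4), Lgr4, Lgr5, Lgr6, Lrp5, Lrp6, Wif1, Axin2, Lef1, Nkd1, Nkd2, Znrf3 or Rnf43. The choice rested on names and took no measured value as a criterion, but earlier results of these data were known when it was made. It gave 54 of the 41934 genes in the tables.

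The study asked how the fetal brain responds when the type 3 deiodinase, the enzyme that clears thyroid hormone, is missing. All 14 fetuses were males on a C57BL/6J background, and each library came from the brain of a single fetus. At embryonic day E13.5 there were 4 Dio3+/+ and 2 Dio3-/- fetuses, and at E18.5 there were 3 Dio3+/+ and 5 Dio3-/- fetuses, all bred from heterozygous parents. The Dio3-/- animals carry point mutations that inactivate the enzyme in every tissue, with the mRNA still made. The mutation acts in the whole body from conception, so the brain is not the only organ without the enzyme.

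For each age, the value used here is the authors' mean normalized count of each gene over all libraries of that age, with both genotypes in 1 average. No value per library was used, so no value below has a replicate error and none was tested. Genotypes are not compared here, and every difference between ages is a description. The E13.5 average holds 33.3% Dio3-/- fetuses and the E18.5 average 62.5%, and age, genotype make-up and sequencing batch cannot be told apart in it. The depth of each library is not in the values used here.

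Wnt proteins are lipid-modified signals that bind a frizzled receptor together with Lrp5 or Lrp6 on the receiving cell. Binding stops the destruction of beta-catenin, which then enters the nucleus and activates genes with factors of the TCF/LEF family, while other branches act through cell polarity proteins. In the embryonic brain the pathway is known for patterning the dorsal midline, the hippocampal primordium and the midbrain-hindbrain boundary, for keeping progenitors dividing, and for forming the vessels of the blood-brain barrier.

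Most of the group was measured at both ages. A mean normalized count of at least 10 was reached by 47 of the 54 members at E13.5, against 44.5% of all genes and 67.6% of protein-coding genes. At E18.5 it was reached by 48 members, against 44.4% of all genes and 68.1% of protein-coding genes. These 2 sets shared 46 genes, and 49 members reached the level at either age. Wnt8a, Wnt10a, Wnt10b, Dkk4 and Rspo4 stayed under it at both ages, with means between 0.594 and 8.68. No member was listed at 0 at either age.

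The ages were set on a common scale by the median ratio over genes with a mean of at least 10 at both, which was 0.821 for E18.5 against E13.5. Differences are given as log2 of E18.5 over E13.5 on that scale after adding 1 to each mean, and levels are given as deposited. The 48 members whose average over both ages was at least 10 had a median log2 difference of -0.54, against 0.02 for the 15001 protein-coding genes that met the same condition. Of them 34 lay below 0 and 14 above, while 7315 of the protein-coding genes lay below 0 and 7686 above. A difference of more than 2-fold lower at E18.5 was found for 11 of the 48 members, against 6.20% of protein-coding genes. A difference of more than 2-fold higher was found for 6 members, against 14.0% of protein-coding genes. On the deposited means, whose median over genes is shifted by -0.28 on the log2 scale, 20 members were more than 2-fold lower, against 10.5% of protein-coding genes, and 5 more than 2-fold higher, against 10.1%. The members that were lower were Wnt3a, Wnt8b, Fzd10, Rspo1, Wnt1, Fzd2, Dkk1, Dkk2, Sfrp2, Rspo3 and Fzd8, and those that were higher were Lgr6, Wnt9b, Sfrp5, Wnt16, Wnt4 and Nkd2. Fzd8 stood just past the line at -1.0, and Fzd1 just short of it at -0.99, or past it at -1.06 when the means were divided by their sum over all genes. In whole brains, fewer cells that express a gene and less RNA per cell cannot be told apart.

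**Figure D1:**
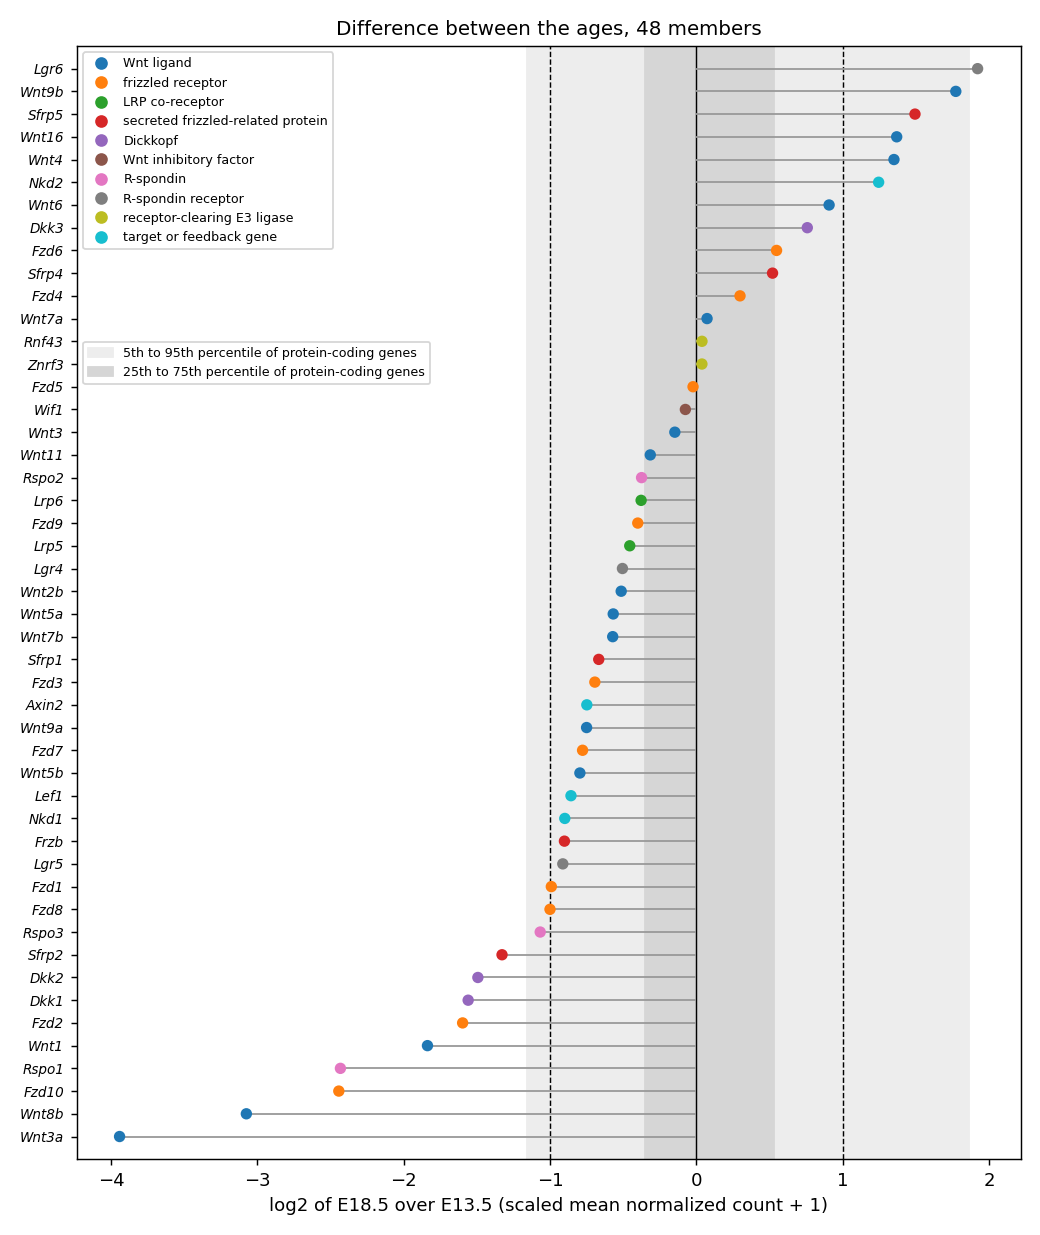
Log2 of E18.5 over E13.5 (horizontal axis, scaled mean normalized count plus 1) for the 48 members with an average of at least 10, in order of that value and coloured by role. Dashed lines mark 2-fold, and grey bands hold the middle of the protein-coding genes; Wnt3a lies farthest left at -3.94 and Lgr6 farthest right at 1.92. Each point is the ratio of 1 average per age, with no replicate error.

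Among the 19 Wnt ligands, 3 were over 2-fold lower at E18.5 and 3 over 2-fold higher, of 15 with an average of at least 10. These are 20% in each direction, against 6.20% of protein-coding genes lower and 14.0% higher. The 3 lower ligands are known from the dorsal midline and from the midbrain-hindbrain boundary. Wnt3a, a signal of the cortical hem that is needed for the hippocampus, had a mean normalized count of 78.3 at E13.5 and 3.42 at E18.5, a log2 difference of -3.94 and the lowest of the group. Only 0.0800% of protein-coding genes had a lower value. Wnt8b, another ligand of the hem and the hippocampal primordium, had means of 393 and 37.6, a log2 difference of -3.08. Wnt1, which maintains the midbrain-hindbrain boundary, had means of 84.0 and 18.7, a log2 difference of -1.84. These are 15.4-fold, 8.43-fold and 3.57-fold lower levels. The size for Wnt3a depends on the number added to its low E18.5 mean, with a log2 difference of -4.23 with nothing added and of -3.19 with 5 added.

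Region markers were also looked up. All 5 midbrain and hindbrain markers (En1, En2, Pax2, Pax5 and Gbx2) were lower at E18.5, with a summed mean normalized count of 7818 at E13.5 and of 2404 at E18.5 on the common scale. Of the 6 telencephalon markers, 3 were lower and 3 higher, with sums of 9176 and 20591. No marker of either list was at 0. Their part in the lower Wnt levels was not tested.

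The 3 ligands that were higher at E18.5 differed in their levels. Wnt9b, best known from the kidney and the face, had means of 14.6 and 43.1, a log2 difference of 1.77. Wnt16, known from bone, had means of 8.0 and 18.3, a log2 difference of 1.37, or of 1.07 with 5 added to each mean. Its E13.5 mean is under 10. Wnt4, a ligand with roles in kidney and gonad that is also made in the nervous system, had means of 146 and 307, a log2 difference of 1.35. Of these 3 ligands, Wnt4 alone had a mean above 100 at both ages. Wnt2, known from the lung, had means of 4.47 and 10.4 and too low an average to be counted. Wnt6 stayed inside 2-fold, with means of 38.7 and 60.4 and a log2 difference of 0.91.

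The 3 ligands with the highest levels per length at each age, Wnt7b, Wnt5a and Wnt7a, lay inside 2-fold. Per kilobase of exons, Wnt7b stood highest of the 19 ligands at both ages, with a mean normalized count per kilobase of 500.0 at E13.5 and 276 at E18.5. Wnt7b and Wnt7a are the neural ligands through which brain vessels form and keep their barrier. Wnt7b held 35.8% of the summed level of all Wnt ligands per kilobase at E13.5 and 32.6% at E18.5. Wnt5a, the main ligand of the branch that does not use beta-catenin, held 16.4% and 15.0%. The level of Wnt7b was 2.18 times that of Wnt5a at both ages. Wnt7a moved from the third to the second place among the ligands as its share went from 11.6% to 16.6%, and the ratio of Wnt7b to Wnt7a went from 3.08 to 1.97. The share of Wnt8b went from 8.09% to 1.28%, and that of Wnt4 from 2.5% to 8.65%. With no replicate error, neighbours in this order, such as Wnt2b at 4.87% and Wnt6 at 3.25% at E18.5, cannot be said to differ.

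On the scale common to both ages, Wnt7b had means of 2449 and 1353 as deposited and a log2 difference of -0.57, the same to 2 decimals as Wnt5a with means of 1794 and 993. Wnt7a, with means of 515 and 445, lay near 0 at 0.07, or at -0.21 on the deposited means. Wnt3 had means of 303 and 224 and a log2 difference of -0.15. The remaining ligands also lay inside 2-fold. Wnt2b (302 and 173), Wnt9a (140 and 68.0), Wnt5b (112 and 52.4) and Wnt11 (36.8 and 24.1) had log2 differences of -0.51, -0.75, -0.80 and -0.32. Wnt5a, Wnt7b and Wnt11 share a part of their exons with a gene on the other strand. Reads were counted without regard to strand, so such reads cannot be assigned to either gene. For Wnt7b the shared part was 6.62% of its exon length, and for Wnt11 8.80%.

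**Figure D2:**
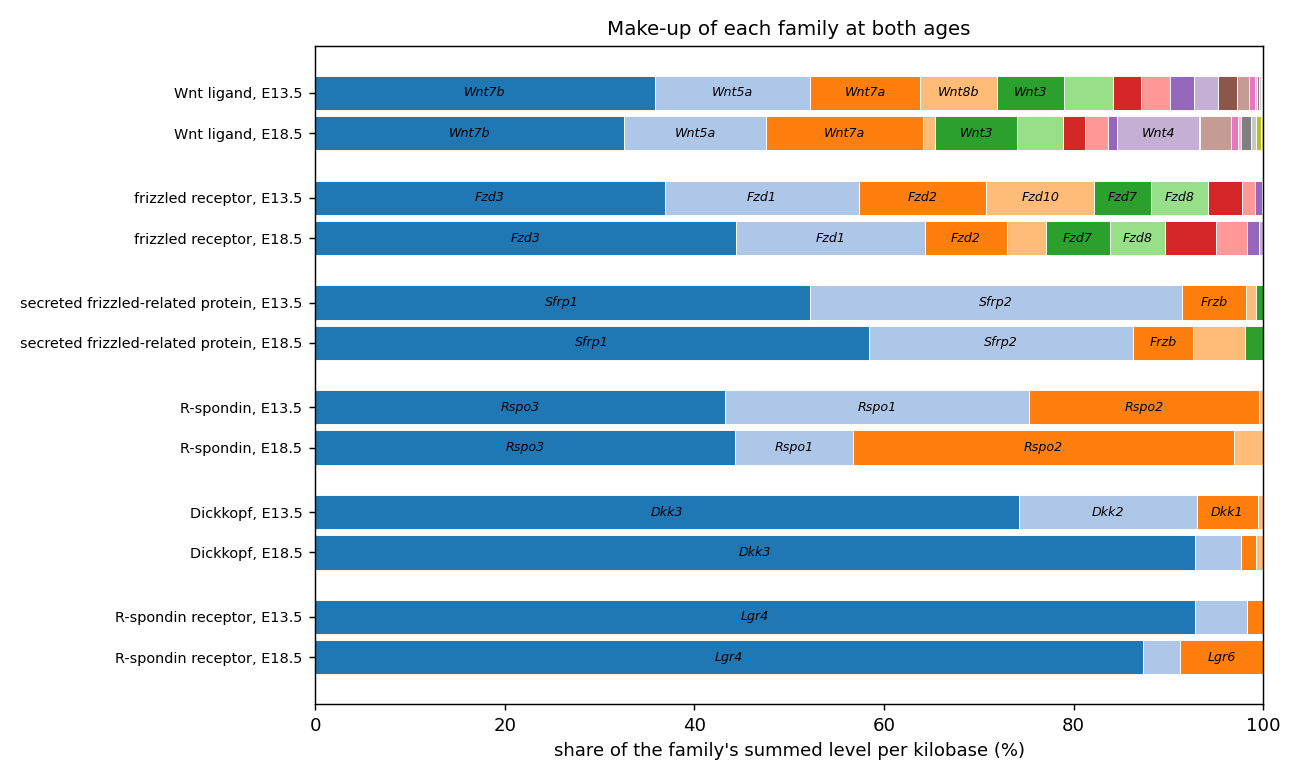
Share of the summed mean normalized count per kilobase of exons held by each member of 6 families (horizontal axis, percent), with 1 bar for E13.5 and 1 for E18.5 for each family. Segments are stacked in the order of the E13.5 share, and those without a name are small; Dkk3 fills 74.2% of the Dickkopf bar at E13.5 and 92.8% at E18.5, and Rspo1 shrinks from 32.1% to 12.5% of the R-spondins.

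Several Wnt genes lie side by side in the mouse genome, and their values were set beside each other. On chromosome 11 of GRCm38, Wnt3a (59248033 to 59290752, minus strand) and Wnt9a (59306928 to 59333552, plus strand) are 16.2 kb apart. Their log2 differences were -3.94 and -0.75. Also on chromosome 11, Wnt9b (103727364 to 103749821, minus strand) and Wnt3 (103774150 to 103817957, plus strand) are 24.3 kb apart, with 1.77 and -0.15. Wnt10b and Wnt1 on chromosome 15 are 11.7 kb apart, and Wnt6 and Wnt10a on chromosome 1 are 6.19 kb apart, but Wnt10a and Wnt10b were too low for a difference. These pairs were picked by a distance under 100 kb after the values had been seen.

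All 10 frizzled receptors were measured at both ages, and 8 of them lay below 0. Fzd3, a receptor of the polarity branch that guides axons, was the highest of the family, with a mean normalized count per kilobase of 1719 at E13.5 and 873 at E18.5. It held 36.9% of the frizzled level at E13.5 and 44.4% at E18.5. Fzd1, an activating receptor of the beta-catenin branch, followed with 952 and 393 per kilobase. Fzd10 went from the fourth place with 11.4% to the seventh with 4.06%, while Fzd2 stayed the third with 628 and 170 per kilobase. Without division by length Fzd3, which has the longest exon sequence of the frizzleds, would hold 64.7% and 70.4%.

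The 3 frizzleds over 2-fold lower differed in size. Fzd10, known from the dorsal neural tube and the midbrain, had means of 1724 and 260 as deposited and a log2 difference of -2.44, or 5.44-fold lower. Fzd2, expressed in dividing progenitors, had means of 2300 and 624 and a log2 difference of -1.60. Fzd8, a receptor of the early forebrain, had means of 1657 and 680. The sum of the 5 neural progenitor markers (Sox2, Nes, Pax6, Vim and Hes5) went from 42667 to 14700 on the common scale. Most of the E13.5 sum came from Vim (21755) and Nes (13679). All 5 were lower, 3 of them over 2-fold, and none was at 0. Sox2 (-0.84) and Pax6 (-0.51) stayed inside 2-fold. The part of these 5 markers in the frizzled levels was not tested.

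The rest of the family lay inside 2-fold. Fzd1 had means of 3994 and 1650, Fzd7 of 1266 and 606 (-0.78 on the log2 scale), Fzd3 of 22015 and 11177 (-0.69), and Fzd9 of 391 and 243 (-0.40). Fzd5, which acts in the eye field and hypothalamus, had means of 222 and 179 and a difference of -0.02, or of 0.04 when the means were divided by their upper quartile. A gene on the other strand covers 17.8% of the exon length of Fzd5. Fzd4, the receptor of vessels for norrin and Wnt7, had means of 426 and 430 and a difference of 0.30, and Fzd6 had means of 33.0 and 40.0 and a difference of 0.55. The 5 endothelial markers, which belong to the cells that carry Fzd4, summed to 9262 at E13.5 and 9629 at E18.5 on the common scale, with 2 higher, 3 lower and none at 0.

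Both co-receptors were a little lower at E18.5. Lrp6 had means of 6163 and 3895 and a log2 difference of -0.38, and Lrp5 had means of 1259 and 754 and a difference of -0.46. The balance between them hardly moved. Per kilobase Lrp6 was 3.49 times Lrp5 at E13.5 and 3.68 times at E18.5. The ratio of all frizzleds to all Wnt ligands per kilobase went from 3.34 to 2.32.

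**Figure D3:**
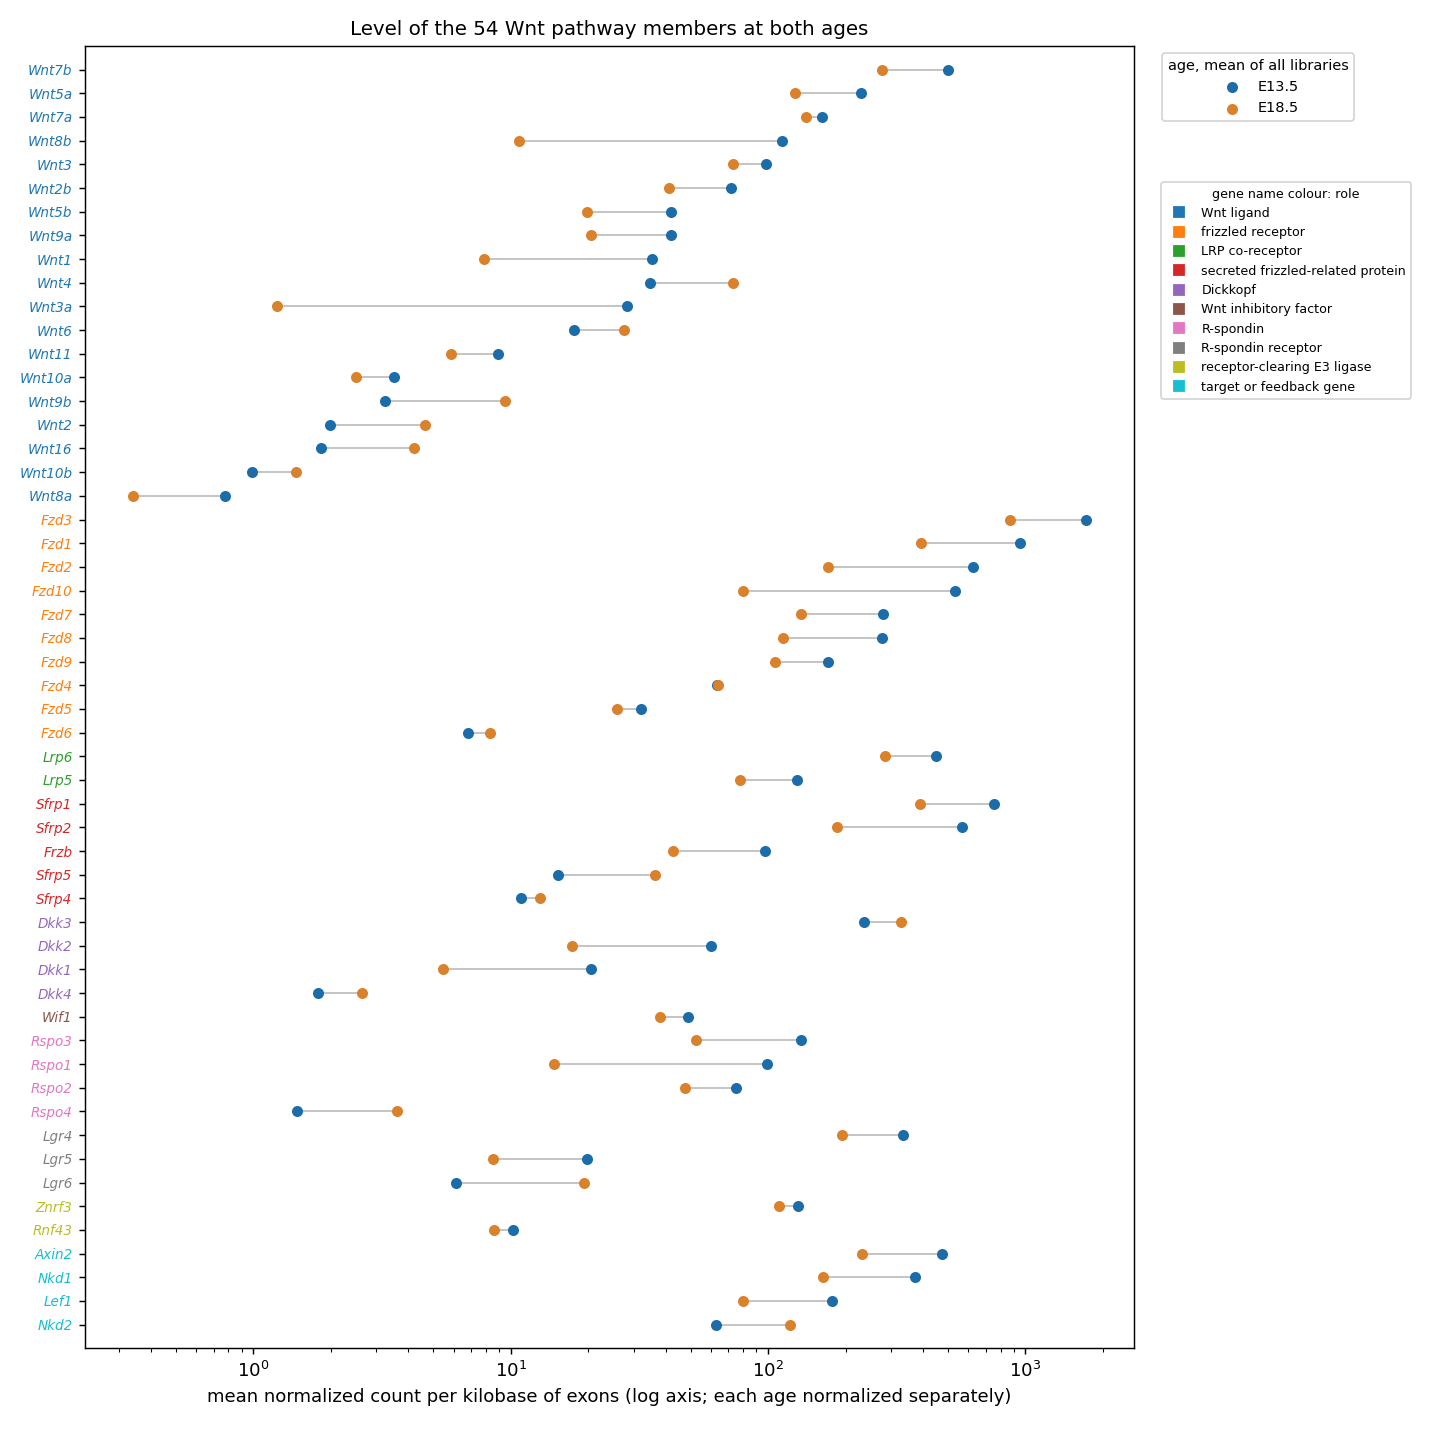
Mean normalized count per kilobase of exons (horizontal axis, logarithmic) of the 54 members at E13.5 (blue) and E18.5 (orange), each age normalized separately; gene names are coloured by role. Fzd3 is the highest member at both ages, with 1719 and 873, and Wnt8a the lowest, with 0.778 and 0.340.

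The secreted antagonists lay on both sides of 0. Sfrp1 and Sfrp2, which bind Wnts outside the cell and are made by progenitors of the ventricular zone, held 52.2% and 39.3% of the level of their family at E13.5. Sfrp1 had means of 3297 and 1705 and a log2 difference of -0.67. Sfrp2 had means of 1224 and 400 and was 2.51-fold lower (-1.33), so that the ratio of Sfrp1 to Sfrp2 per kilobase went from 1.33 to 2.10. A gene on the other strand covers 16.1% of the exon length of Sfrp2. Frzb, a member of the family known from cartilage, had means of 314 and 138 and a difference of -0.90. The 5 cartilage markers were all lower as well, with a sum of 10833 at E13.5 and 2966 at E18.5 on the common scale and none at 0. Col2a1 gave 5728 and 516 of these sums, the largest part at E13.5. Sox9 gave 4543 and 2263, so the sum mostly follows Sox9 at E18.5. Apart from Sox9, the cartilage markers had log2 differences between -3.47 (Col2a1) and -0.83 (Acan). Their part in the level of Frzb was not tested.

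The other frizzled-related members were higher at E18.5. Sfrp5, over 2-fold higher, had means of 29.1 and 68.8, a log2 difference of 1.49. Sfrp4 had means of 45.7 and 54.2, a difference of 0.52. Both had small shares of the family. Sfrp5 held 1.06% at E13.5 and 5.43% at E18.5, and Sfrp4 held 0.757% and 1.94%.

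Dickkopf proteins Dkk1, Dkk2 and Dkk4 block Lrp5 and Lrp6, while Dkk3 is a diverged member for which such binding is not established. Dkk1, an antagonist needed for the head to form, had means of 49.6 and 13.3, or 2.95-fold lower (-1.56). Dkk2 had means of 222 and 64.1, or 2.82-fold lower (-1.49). Dkk3 went the other way, with means of 793 and 1101 and a log2 difference of 0.76. Dkk3 held most of the level of the family at both ages, with 74.2% and 92.8%. Wif1, which binds Wnts directly, had means of 119 and 92.5 and a difference of -0.08.

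R-spondins keep frizzleds on the cell surface by drawing the E3 ligases Znrf3 and Rnf43 away through Lgr4, Lgr5 and Lgr6. Rspo1, needed for the female gonad, had means of 192 and 28.6, a log2 difference of -2.43 or 5.40-fold lower. Rspo3, which is known from the cortical hem and from vessels, had means of 413 and 161 and a difference of -1.07. Rspo2, also made in the hem, had means of 383 and 242 and a difference of -0.37. Per kilobase Rspo3 was 1.35 times Rspo1 at E13.5 and 3.54 times at E18.5, while the ratio of Rspo2 to Rspo3 went from 0.561 to 0.908. Rspo3 held the largest share of the R-spondins at E18.5, with 44.3%, but not when levels were divided by the longest transcript (36.3%) or by no length (36.6%). A gene on the other strand covers 13.1% of the exon length of Rspo3.

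The R-spondin receptors went in different directions. Lgr4 made up 92.8% of the receptor level at E13.5 and 87.4% at E18.5, with means of 1963 and 1136 and a log2 difference of -0.51. Lgr5, known as a stem cell marker of the gut, had means of 202 and 87.9 and a difference of -0.91. Lgr6, known from stem cells of the skin, had means of 41.8 and 132 and a difference of 1.92, the highest of the 48 members. Per kilobase, Lgr6 stood at 0.310 of the level of Lgr5 at E13.5 and at 2.3 times that level at E18.5.

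The ligases that remove frizzleds from the surface lay close to 0. Znrf3 had means of 1034 and 872 and Rnf43 of 66.8 and 56.4. Both had a log2 difference of 0.04, which became -0.03 when the means were divided by their sum over all genes. Znrf3 was 12.9 times Rnf43 per kilobase at both ages. The ratio of the ligases to the R-spondins per kilobase went from 0.457 to 1.01.

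Axin2, Nkd1, Nkd2 and Lef1 were grouped as target or feedback genes. Beta-catenin activates Axin2, Nkd1 and Lef1 in many tissues, and the Axin2 and Nkd proteins in turn dampen the signal. The activity of the pathway itself was not measured. Axin2 had means of 2612 and 1276 and a log2 difference of -0.75. Nkd1 had means of 1691 and 744 and a difference of -0.90, and Lef1 had means of 1555 and 705 and a difference of -0.86. These 3 values lie close together, and between 8.07% and 9.81% of protein-coding genes had lower ones. Nkd2 differed from its relative Nkd1, with means of 302 and 588 and a difference of 1.25. The ratio of Nkd1 to Nkd2 per kilobase went from 5.94 to 1.34. For Lef1, 13.8% of the exon length is shared with a gene on the other strand.

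The promoters of the members were searched for the letters that TCF/LEF factors are known to prefer, in the 250 bases before and 50 bases after each RefSeq start in GRCm38.p6. RefSeq promoters were matched for 36 of the 54 members, in 43 windows. The motif searched was CTTTG followed by 2 letters that are each A or T, on both strands. A match was found in 6 of the 36 members (16.7%), against 18.9% of all genes with a promoter. The 7 matches are shown with 10 bases on either side, because they include Dkk1 with a pair of matches, Lef1, itself a factor that reads these letters, and Wnt3, whose match lies in the bases after the start. Each is read 5′ to 3′ on the strand of its gene, and capitals mark the 7 letters that match or their reverse complement.
Dkk1, chr19:30549578-30549604, minus strand: cccatcccggCTTTGTTgtcttccctg
Dkk1, chr19:30549597-30549623, minus strand: cctcccaaagCTTTGAAatcccatccc
Fzd7, chr1:59482007-59482033, plus strand: ccacagagaaAACAAAGcgcgctattg
Lef1, chr3:131156137-131156163, plus strand: aacctcagaaTACAAAGtaggattgca
Wnt11, chr7:98835051-98835077, plus strand: acgtgggcggATCAAAGcgacggtccg
Wnt3, chr11:103774183-103774209, plus strand: ctcaagtggaCTTTGTTccaactattg
Wnt5b, chr6:119449441-119449467, minus strand: gtaagtctctCTTTGATctgctccctg
These matches are letters in a window and not known binding sites. The windows of Lef1 and Wnt5b belong to RefSeq starts inside the gene. In GENCODE M21 Lef1 begins at 131110471, and Wnt5b, on the minus strand, begins at 119544347. The 6 genes had log2 differences between -1.56 (Dkk1) and -0.15 (Wnt3), with -0.78 for Fzd7, -0.86 for Lef1, -0.80 for Wnt5b and -0.32 for Wnt11. Of the 48 members with an average of at least 10, 34 lay below 0. A relation between matches and differences was not tested.

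Beyond these members, 60 other genes of the pathway were looked up, among them secretion factors, further co-receptors, polarity proteins, the destruction complex and the nuclear factors. At each age 59 of the 60 reached a mean of 10. Their median log2 difference was -0.28, with 3 genes over 2-fold higher, against 14.0% of protein-coding genes, and 7 over 2-fold lower, against 6.20%. The 3 highest per kilobase belong to the intracellular core. Ctnnb1, which encodes beta-catenin, had means of 23458 and 12540 and a log2 difference of -0.62. Gsk3b, the kinase that marks beta-catenin for destruction, had means of 22567 and 17392 and a difference of -0.09, and Apc2, a scaffold of the same complex, had means of 25366 and 17933 and a difference of -0.22. All 14 genes of the cytoplasmic list lay inside 2-fold.

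Past 4-fold lower were 2 of the 60, against 183 of the 15001 protein-coding genes. Past 4-fold higher was 1 of the 60, against 632 of the protein-coding genes. Ccnd1, a cyclin that drives cells into S phase and a known target of beta-catenin, had means of 4201 and 854 and a log2 difference of -2.01. Sost, an antagonist best known from bone, had means of 20 and 3.19 and a difference of -2.11. Notum, the enzyme that removes the lipid from Wnts, had means of 10.3 and 38.1 and a difference of 2.06. It had been listed both with the secretion factors and with the nuclear factors and targets. Sp5 and Tnfrsf19, listed with the nuclear factors and targets like Ccnd1, had log2 differences of -0.20 and -0.09.

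The tissue of the libraries was checked against marker lists. Neuronal markers were abundant at both ages, with Tubb3, Map2, Stmn2, Dcx and Snap25 between 2107 and 66708, and none of the 66 markers was at 0. Between E13.5 and E18.5, on the common scale, the sum of the choroid plexus list was 3.43-fold, of the astrocyte list 3.08-fold and of the oligodendrocyte list 2.90-fold higher. Ttr alone gave 4030 and 15604 of the choroid plexus sums of 4857 and 16683. Of the 5 choroid plexus markers 4 were higher, and Clic6 was lower with a log2 difference of -0.28. All 4 astrocyte and all 4 oligodendrocyte markers were higher. The lists of cartilage (3.65-fold), spinal cord and caudal hindbrain (2.40-fold) and blood (1.89-fold) were lower. Of the cartilage sum, Col2a1 gave 5728 at E13.5 and 516 at E18.5, and Sox9 gave 4543 and 2263. Skeletal muscle, leptomeninges, endothelium, neuron and microglia markers had ratios of sums between 0.804 and 1.33. Such a sum can hide opposite differences. Of the 6 leptomeningeal markers 3 were lower and 3 higher, between -2.32 (Crabp2) and 2.05 (Slc6a13) on the log2 scale. In the skeletal muscle list Myh3 differed by -2.42 and Acta1 by 1.43. The part of these shifts in the levels of the Wnt genes was not tested.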

How the data were processed

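RNA of 14 fetal brains was sequenced, and samples were grouped by the age and genotype in the labels. The authors trimmed reads with cutadapt 3.1, aligned them with STAR 2.5.3a to GRCm38 (mm10), removed ribosomal and transfer RNA with bedtools 2.26.0, assigned them to genes of GENCODE VM22 by the union mode of HTSeq, which ignored strand, and used ComBat-seq to adjust for 2 batches. The authors applied DESeq2 1.30.1 (R 4.0.3) separately to each age. The deposited signal used here is the mean normalized count, that is, counts divided by size factors and averaged over the libraries of an age. The tables also hold the authors' own genotype comparison (log2 fold change, its standard error, Wald statistic, p-values), which was not used. The tables had 0 further columns for single samples. With no value per library, the planned edgeR test of genotype, which needs counts, was not run, and precision is unknown.

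Members and lists were chosen with earlier results of these data known. Pairs, neighbours and the promoter search were chosen after the values were seen. Every member is accounted for, those with a mean of at least 10 at either age by both means. Of the other pathway genes, the 3 highest and those past 4-fold are named. Levels were divided by merged exon length in GENCODE M21, which matched 41897 genes by identifier and missed 37. E18.5 means were divided by the median ratio (0.821), 1 was added, and a change was counted past 2-fold where the average was at least 10. The scaling was tested on simulated data in which as many genes were raised as lowered. Unequal numbers of higher and lower genes, as in these data, were not simulated. Python 3.11.15, pandas 2.3.3, numpy 2.4.6 and matplotlib 3.10.9 were used. Alternatives were other minimums, lengths, scalings and pseudocounts.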

Additional observations from a re-analysis of the deposited data

How the results depend on the processing

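Of the counts and family shares, 73 values under the alternatives run stayed within 1.5 times of the value in the report, with the same leading gene in each family, and 5 did not. The 73 include the alternative in which rows with the same symbol were summed. It could not change a value, because every member symbol is unique. Without a scale common to both ages, 20 members in place of 11 were over 2-fold lower and 5 in place of 6 over 2-fold higher, and 10.5% of protein-coding genes were then lower and 10.1% higher. Without division by length, Fzd3 held 64.7% of the frizzled level at E13.5 and 70.35% at E18.5. The share of Rspo3 at E18.5 was 36.61% without division by length and 36.3% with the longest transcript, and Rspo3 no longer led its family. Of the single members' differences, 317 values stayed on their side of 2-fold and 13 did not. The 317 include alternatives that changed only the minimum average. Those decide which members are counted and could not move a member's difference. Of these 13, 10 came from the deposited means (Axin2, Frzb, Fzd1, Fzd7, Lef1, Lgr5, Nkd1, Nkd2, Wnt5b and Wnt9a), and the others were Fzd1 with means divided by their sum and Fzd8 with the upper quartile or a pseudocount of 5. No difference past 2-fold changed sign.

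Precision is unknown, since no values per library were used. For the same reason the planned test of genotype and its alternatives (DESeq2, each replicate left out, no filter on low counts, a replicate block) were not run. No paired analysis was possible because the columns used hold no single libraries and no replicate numbers.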
